A study of Homo sapiens with 16 samples.

Results

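The miRNAs from miR-6715 to miR-6895 form a block of human miRNA names that was given largely to mirtrons and other short intronic hairpins. They were examined in OE19, a human cell line of esophageal adenocarcinoma (EAC). Members are the probes named for these miRNAs, of any letter or arm, that have a normalized value on all 16 arrays. Of 354 probes in this range, 57 qualified, out of 382 such probes among the 2565 on the array. They comprised 48 probes for a 5p arm, 8 for a 3p arm and miR-6860, whose name gives no arm. The rule uses the name and detection on every array and no other measured value, although it was set with earlier results of these data known.

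The 2 groups were 8 arrays of OE19 cells left untreated and 8 of cells given 100 μM telmisartan, an angiotensin II type 1 receptor blocker, both harvested at 48 h. OE19 was grown as 1 cell line in medium with serum, and the labels name no engineered allele. No source used here says that the arrays of a group were separate cultures, so p-values measure the spread between arrays, which may be technical. Arrays are called by their label numbers, 1 to 8 in each group. Arrays 1 to 4 and 5 to 8 are treated as sets because they part in these data, although no label names a batch. P-values of fits that use these sets therefore rest on a split drawn from the same values.

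A miRNA is cut from a hairpin precursor, and the strand taken from the left side is called 5p and that from the right side 3p. In a mirtron the hairpin is a whole short intron, so that splicing does the work of the first cutting enzyme, Drosha, and the hairpin ends at or near splice sites. Introns begin with GU and end with AG, and the polypyrimidine tract before the AG places C and U in the 3p strand and G in the strand opposite. Bases 2 to 8 of a mature miRNA, the seed, guide it to its target mRNAs. Most miRNAs in this number range have no established function.

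The sequences below, from RefSeq on GRCh38.p14, are those on which the results turn, written 5′ to 3′ with the seed in capitals. RefSeq gave a sequence for 52 of the 57 members. miR-6756-5p, miR-6821-5p, miR-6845-5p, miR-6879-5p and miR-6893-5p are named only. The first 6 are both arms of the 3 hairpins whose arms were both members.
miR-6726-5p: cGGGAGCUggggucugcaggu
miR-6726-3p: cUCGCCCUgucucccgcuag
miR-6741-5p: gUGGGUGCuggugggagccgug
miR-6741-3p: uCGGCUCUcucccucacccuag
miR-6765-5p: gUGAGGCGgggccaggagggugugu
miR-6765-3p: uCACCUGGcuggcccgcccag
The next 5 had the treatment differences described below.
miR-6784-5p: gCCGGGGCuuugggugaggg
miR-6868-5p: aCUGGCAGaacacugaagcagc
miR-6731-5p: uGGGAGAGcaggguauugugga
miR-6872-3p: cCCAUGCCuccugccgcgguc
miR-6840-3p: gCCCAGGAcuuugugcggggug
The last 5 show the parting of the control arrays and the only seed that 2 members shared, that of miR-6812-5p and miR-6819-5p.
miR-6819-5p: uUGGGGUGgagggccaaggagc
miR-6812-5p: aUGGGGUGagauggggaggagcagc
miR-6743-5p: aAGGGGCAgggacggguggccc
miR-6851-5p: aGGAGGUGguacuaggggccagc
miR-6768-5p: cACACAGGaaaagcggggcccug

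The members were rich in G. The median G content of the 43 members of the 5p arm with a sequence was 54.5%, and that of the 8 members of the 3p arm was 16.8%. Across all 2253 array miRNAs with a sequence the median was 27.3%. The letters GGG, searched on the mature strand and counted once a miRNA, stood in 43 of the 52 members (82.7%) against 32.5% of all array miRNAs, and lay inside the seed in 36 (69.2%) against 15.8%. The seed of miR-6743-5p, for example, runs through a stretch of 4 G. The probes of the same range that were not detected on every array were less rich in GGG at 34.8%, but this set held mostly 3p arms. Among 5p arms the share was 95.3% of the members and 78.5% of the others in the range. Richness in G was not particular to this range. The 108 miRNAs from miR-1000 to miR-6714 with a value on all arrays and a sequence had a median of 52.2% G. GGG stood in 72.2% of them and inside the seed in 44.4%. Over all 282 other miRNAs with a value on all arrays and a sequence, these shares were 50.4% and 23.8%. The 52 members had 51 distinct seeds, so these miRNAs do not form a seed family.

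The hairpins were mostly intragenic and mostly ended like introns. Of the 49 distinct hairpins of the members with a sequence, 46 (93.9%) fell wholly inside the span of a protein-coding gene, on either strand, against 55.3% of the hairpins of the other miRNAs with a value on all arrays. The hairpin ended in AG in 43 of 49 (87.8%) against 9.73% of those others. Few began with GU, 6 of the 49 against 24 of the 257 others. Only 3 of the 49 (6.12%) had both ends, against 3.50% of those others. The gene span and the AG end belonged to the number range as a whole. Of the hairpins of probes in the range that were not members, 91.3% lay in such a span and 84.4% ended in AG. MIR6765, on chromosome 14 within the span of JAG2, a Notch ligand gene, both begins with GU and ends with AG. It is shown whole, with the 2 arms in capitals, because its arms gave treatment differences of opposite sign.
MIR6765: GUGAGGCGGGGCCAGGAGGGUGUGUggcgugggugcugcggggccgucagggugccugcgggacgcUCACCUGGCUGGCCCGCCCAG
It spans chr14:105150778-105150864 on the minus strand. Other members lay in the spans of SREBF1, which encodes a regulator of sterol and fatty acid synthesis (miR-6777-5p), BECN1, an autophagy gene (miR-6781-5p), RUNX3, a transcription factor gene (miR-6731-5p), MYH9, a non-muscle myosin gene (miR-6819-5p), and JAG1, another Notch ligand gene (miR-6870-5p). The span of KDM5C, a histone demethylase gene, held both miR-6894-5p and miR-6895-5p. The arrays did not measure these mRNAs.

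The arrays differed widely in how much they detected. A probe counted as detected when its raw intensity exceeded the mean of the blank spots by 2 SD, and 454 to 1885 of the 2565 probes passed on an array. Of the 354 probes in the range, 65 to 336 passed. The 9 epithelial and columnar gut miRNAs examined as a check of the cell line were all detected on all 16 arrays, as was miR-126-3p, usually an endothelial marker, with a median signal of 48.7. None of the squamous (1), blood (3), mesenchymal and muscle (4), neural (1) or liver (1) miRNAs examined was. Of these, the blood miRNA miR-451a came closest, on 7 control and 7 telmisartan arrays with a median signal of 5.41. The squamous miRNA, miR-205-5p, was detected on 3 and 5.

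The 5p arms were detected far more steadily than the 3p arms. Of the 176 probes for a 5p arm, 48 (27.3%) were detected on all arrays, against 8 of 174 (4.60%) for a 3p arm. On part of the arrays the difference was small: the median probe was detected on 9 arrays for 5p and on 7 for 3p, and only 2 of each arm were detected on none. Among the 171 hairpins with both arms on the array, the 5p arm was seen on more arrays in 94, the 3p arm in 65, and both on as many in 12. The 5p arm alone reached all 16 arrays in 44 hairpins and the 3p arm alone in 5. Among miRNAs numbered under 1000 and let-7 the shares detected on all arrays were 24.7% for 5p and 18.4% for 3p, and among those from miR-1000 to miR-6714 they were 10.3% and 3.61%.

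**Figure D1:**
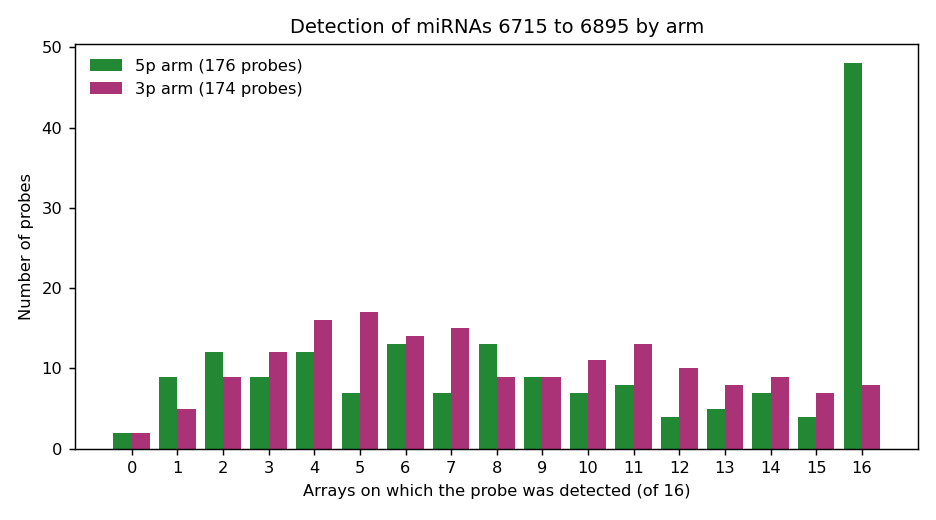
Number of probes for miR-6715 to miR-6895 (vertical axis) by the number of arrays, of 16, on which each was detected (horizontal axis), with green bars for 5p and purple bars for 3p arms. The bar at 16 arrays holds 48 probes for 5p and 8 for 3p. From 10 to 15 arrays 3p probes are more numerous at every count, for example 10 against 4 at 12 arrays. At lower counts either arm can be ahead, with 17 for 3p against 7 at 5 arrays and 13 for 5p against 9 at 8 arrays.

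Most members were dim. After subtraction of the background, which lay between 14.9 and 33.6 intensity units on the arrays, the median signal of a member over the 16 arrays ran from 7.03 to 280.0 units with a middle value of 20.3. In 8 members the signal exceeded the background level on every array, and in another 8 it did so on none. On the log2 normalized scale, which is used from here on, the members' means over 16 arrays ran from 2.91 to 8.07 with a median of 4.33, against 5.22 for all 382 probes. The brightest probes were those of miR-6765-3p (8.07), miR-6743-5p (7.72), miR-6822-5p (7.54), miR-6729-5p (6.52) and miR-6786-5p (6.51). The dimmest were miR-6872-3p (2.91), miR-6726-3p (3.02), miR-6754-5p (3.04), miR-6732-3p (3.06) and miR-6870-5p (3.08). Brightness depends on the probe as well as on the miRNA, so this order is not one of amounts. Of the 8 members of the 3p arm, all but miR-6765-3p and miR-6840-3p (6.19) had means under 3.5.

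Telmisartan changed few of these miRNAs. With limma and adjustment over all 382 probes, 1 of 57 members rose, miR-6784-5p, where 9.69% of all probes rose, and 1 fell, miR-6765-3p, where 7.33% of all fell. The members' differences (telmisartan minus control) ran from -0.50 to 0.56, with a median of -0.04 against -0.01 for all 382 probes. At an unadjusted p under 0.05, 6 members (10.5%) passed, against 26.7% of all probes. Both shares of members called, 1.75% each, lay below those of all probes. As arrays of the same label number deviated together by the check given with the methods, although arrays of the same set did so too, the fit was repeated with the number as a block. It again called 1 member higher, now miR-6868-5p, where it called 9.69% of all probes higher, and it called 4 lower where it called 9.95% of all lower, namely miR-6765-3p, miR-6731-5p, miR-6840-3p and miR-6872-3p. Without control array 4, telmisartan array 3 or telmisartan array 5 no member fell in the unblocked fit, and 2 fell without control array 1 or telmisartan array 7. Without control array 6, control array 7 or telmisartan array 1, 2 members rose. In either direction these fits with 1 array left out called 51 to 70 of all 382 probes, against 65 with all arrays.

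miR-6765-3p, the brightest member, gave log2 values of 7.85 to 8.70 on the control arrays (median 8.26) and of 7.38 to 8.11 on the telmisartan arrays (median 7.92). The groups overlapped, and 3 of the 8 telmisartan arrays were lower than any control array. The means were 8.30 ± 0.28 and 7.84 ± 0.27 (SD, n = 8 each), a difference of -0.46 (SE 0.14, adjusted p = 0.0275 from limma, 0.00693 with the block), or 0.727-fold. The difference was similar in the sets, -0.44 in arrays 1 to 4 and -0.49 in arrays 5 to 8. In neither set alone did it pass (adjusted p = 0.142 and 0.0586 from limma). With all arrays it passed, but it missed the threshold without control array 2 or 4 or telmisartan array 3 or 5 (adjusted p = 0.0537 to 0.0567 from limma). It also missed with median scaling in place of quantile normalization (adjusted p = 0.155). With no scaling the difference was -0.26 (adjusted p = 0.346), and with quantile normalization over each array's detected probes -0.37 (adjusted p = 0.999). Its signal was at least 173.6 units above the background on every array.

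For the other arm of the same hairpin, miR-6765-5p, the difference had the opposite sign. It gave 4.12 to 4.70 on the control arrays (median 4.57) and 4.49 to 5.29 on the telmisartan arrays (median 4.88). Telmisartan arrays 1 to 4, at 5.01, 5.07, 5.29 and 5.10, were above every control array, as was array 6 at 4.74, while arrays 5, 7 and 8, at 4.49, 4.49 and 4.54, lay within the control range. The difference of 0.30 (SE 0.13) did not pass (adjusted p = 0.136), and it depended on the set, with 0.68 in arrays 1 to 4 and -0.08 in arrays 5 to 8 (interaction adjusted p = 0.00534). The log2 value of 5p minus that of 3p ran from -4.49 to -3.31 on control arrays (median -3.64) and from -3.57 to -2.19 on telmisartan arrays (median -3.01), with 6 of 8 telmisartan arrays above every control array. This gap between the arms of MIR6765, which was given no test, was on average 0.76 smaller with telmisartan, by 1.12 in arrays 1 to 4 and by 0.41 in arrays 5 to 8.

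For the remaining hairpins neither arm passed for treatment. The differences of miR-6726 were -0.01 for 5p and -0.25 for 3p (adjusted p = 0.974 and 0.197), and those of miR-6741 were -0.15 and -0.04 (adjusted p = 0.756 and 0.915). In arrays 1 to 4 the arms of miR-6726 also differed in sign, at 0.17 for 5p and -0.37 for 3p, and in arrays 5 to 8 they were at -0.19 and -0.12. The value of 5p minus 3p changed by 0.23 for miR-6726, with 3 of 8 telmisartan arrays above every control array, and by -0.11 for miR-6741, with none. Over the 16 arrays the arms correlated at r = 0.01 for miR-6726, 0.68 for miR-6741 and -0.46 for miR-6765, given as a description, since the arms share the arrays and their normalization.

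miR-6784-5p, from within the span of PLCD3, a phospholipase C gene, gave 4.32 to 5.25 on control arrays (median 4.74) and 5.00 to 5.49 on telmisartan arrays (median 5.30). The means were 4.77 ± 0.35 and 5.27 ± 0.19 (SD, n = 8 each), and 5 of 8 telmisartan arrays lay above every control array. The difference was 0.50 (SE 0.14, adjusted p = 0.0178 from limma), or 1.42-fold. It missed the threshold with the number as a block (adjusted p = 0.0632), though not with the array set as a block (adjusted p = 0.0113). It also missed with median scaling (adjusted p = 0.0575) and with no scaling (adjusted p = 0.159). It was seen in 1 set of arrays. Control arrays 1 to 4 gave 4.62, 4.45, 4.52 and 4.32, and telmisartan arrays 1 to 4 gave 5.46, 5.40, 5.49 and 5.33, a 1.92-fold difference with no overlap. Control arrays 5 to 8 gave 5.17, 5.00, 5.24 and 4.86 and telmisartan arrays 5 to 8 gave 5.26, 5.21, 5.04 and 5.00, a 1.04-fold difference with overlap (interaction adjusted p = 0.00118).

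miR-6868-5p had the largest difference of the members and kept its direction in both sets. Control arrays ran from 2.43 to 3.81 (median 3.48) and telmisartan arrays from 3.19 to 4.12 (median 3.99). Of the telmisartan arrays, 7 of 8 were above every control array, and array 1, at 3.19, was the exception. The difference was 0.56 (SE 0.19, adjusted p = 0.0521 from limma, 0.00449 with the block), with 1.70-fold in arrays 1 to 4 and 1.27-fold in arrays 5 to 8. With the array set as a block, the adjusted p from limma was 0.0139. Control array 1, at 2.43, was also the lowest of its group. The probe was dim, with a signal of 3.06 units above background on its lowest array. Unlike most 5p members its sequence holds no GGG and 27.3% G, the least of the 5p members with a sequence.

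Of the members that fell in the blocked fit, miR-6731-5p gave 4.08 to 4.83 on control arrays (median 4.57) and 3.76 to 4.39 on telmisartan arrays (median 4.12). Its difference was -0.36 (SE 0.12, adjusted p = 0.0551, 0.0256 with the block), with -0.43 and -0.28 in the sets. miR-6872-3p gave 2.48 to 3.80 and 2.28 to 3.37 (medians 3.11 and 2.54), a difference of -0.50 (SE 0.21, adjusted p = 0.127, 0.0241 with the block), with -0.69 and -0.30 in the sets. miR-6840-3p gave 5.96 to 6.62 and 5.70 to 6.49 (medians 6.36 and 6.07), a difference of -0.26 (SE 0.13, adjusted p = 0.209, 0.0280 with the block), with -0.35 and -0.17 in the sets. In all 3 the groups overlapped, with 2 of 8 telmisartan arrays lower than any control array. With the array set as a block, a split drawn from these data, limma also called all 3 lower. The adjusted p was then 0.0248 for miR-6731-5p, 0.00842 for miR-6872-3p and 0.0149 for miR-6840-3p. With miR-6765-3p, then, 3 of the 4 members called lower with the number as a block were 3p arms. Differences were below 0 in 7 of the 8 members of the 3p arm, 28 of the 48 of the 5p arm and 196 of all 382 probes. The medians were -0.15 for 3p, -0.04 for 5p and -0.01 for all probes.

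**Figure D2:**
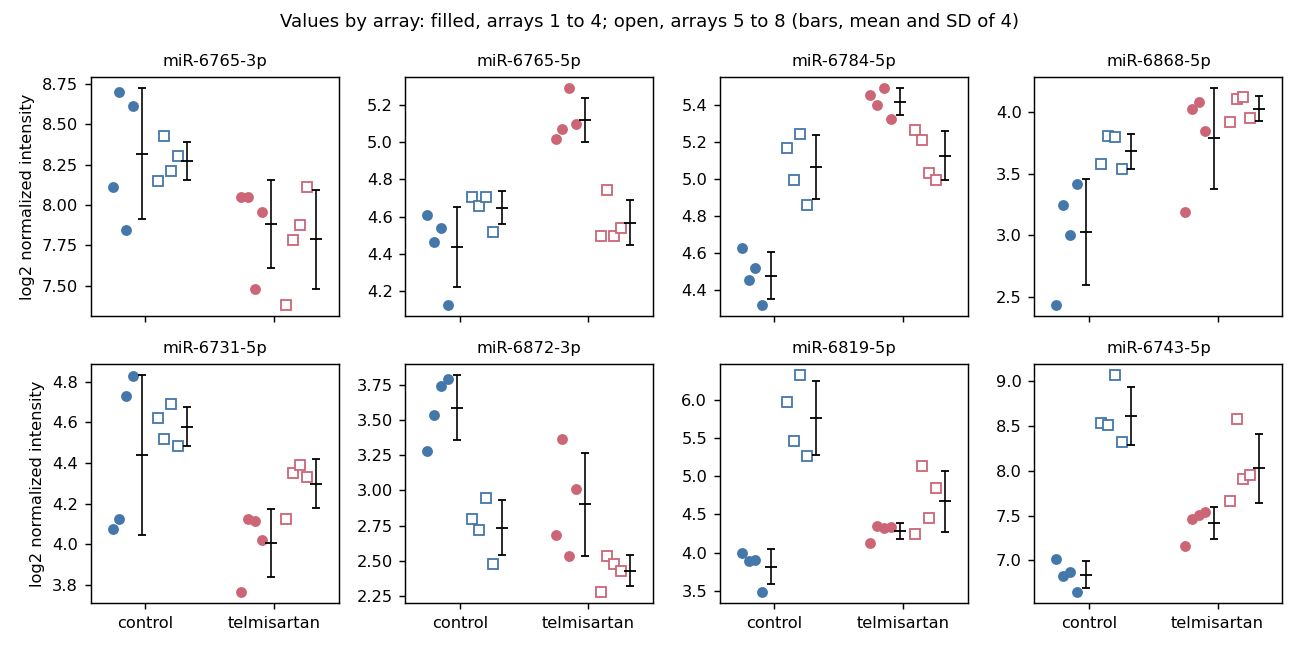
Log2 normalized intensity (vertical axes, scaled to each miRNA) on every array for 8 members, with control in blue and telmisartan in red, filled circles for arrays 1 to 4, open squares for arrays 5 to 8, and the mean ± SD of each 4 in black. miR-6765-3p is lower with telmisartan in both sets, miR-6784-5p is higher in arrays 1 to 4 alone, and miR-6819-5p and miR-6743-5p part the control arrays by set.

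The larger pattern among the members was that of the array sets. On control arrays 1 to 4 the members' median log2 value was 3.98 to 4.11, and on control arrays 5 to 8 it was 4.30 to 4.69, although quantile normalization gave every array the same median over all 382 probes. Of the 57 members, 28 (49.1%) had all of control arrays 1 to 4 below all of 5 to 8, against 34.8% of all probes, and 5 had them all above, against 31.2% of all. All 28 were 5p arms. In all, 47 of 57 members (82.5%) had a lower mean in control arrays 1 to 4, with a median difference (1 to 4 minus 5 to 8) of -0.35. The median was -0.39 for the 5p and -0.14 for the 3p members.

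This behavior was shared with part of the other miRNAs. The same median was -0.48 for the 129 probes from miR-1000 to miR-6714 and 0.51 for the 180 numbered under 1000 and let-7. The largest differences of members were those of miR-6819-5p (-1.94), miR-6743-5p (-1.77), miR-6851-5p (-1.54), miR-6782-5p (-1.49) and miR-6768-5p (-1.07). miR-6819-5p gave 3.99, 3.89, 3.90 and 3.48 on control arrays 1 to 4 and 5.98, 5.46, 6.33 and 5.26 on control arrays 5 to 8. miR-6743-5p, one of the brightest members, gave 7.01, 6.83, 6.87 and 6.64 and then 8.54, 8.51, 9.08 and 8.32. In neither did the sets overlap. miR-6812-5p, which has the seed of miR-6819-5p, differed by -0.47. The members that were higher in control arrays 1 to 4 without overlap were miR-6872-3p (0.85), miR-6777-5p (0.70), miR-6860 (0.61), miR-6840-3p (0.51) and miR-6885-5p (0.33).

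On the telmisartan arrays the sets lay closer together. There the members' median was 3.96 to 4.32 on arrays 1 to 4 and 4.23 to 4.52 on arrays 5 to 8, and the median difference between the sets was -0.07. Of the members, 5 (8.77%) had telmisartan arrays 1 to 4 all below 5 to 8, against 5.76% of all probes, and 3 (5.26%) had them all above, against 8.38%. The SD over the 8 arrays was larger in control than with telmisartan in 42 of 57 members (73.7%), and in 79.6% of all probes. The background level was higher on arrays 1 to 4 (23.0 to 32.5 units in control, 22.6 to 33.6 with telmisartan) than on arrays 5 to 8 (14.9 to 23.1 and 19.9 to 24.0), with overlap. Its part in the members' values was not tested.

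**Figure D3:**
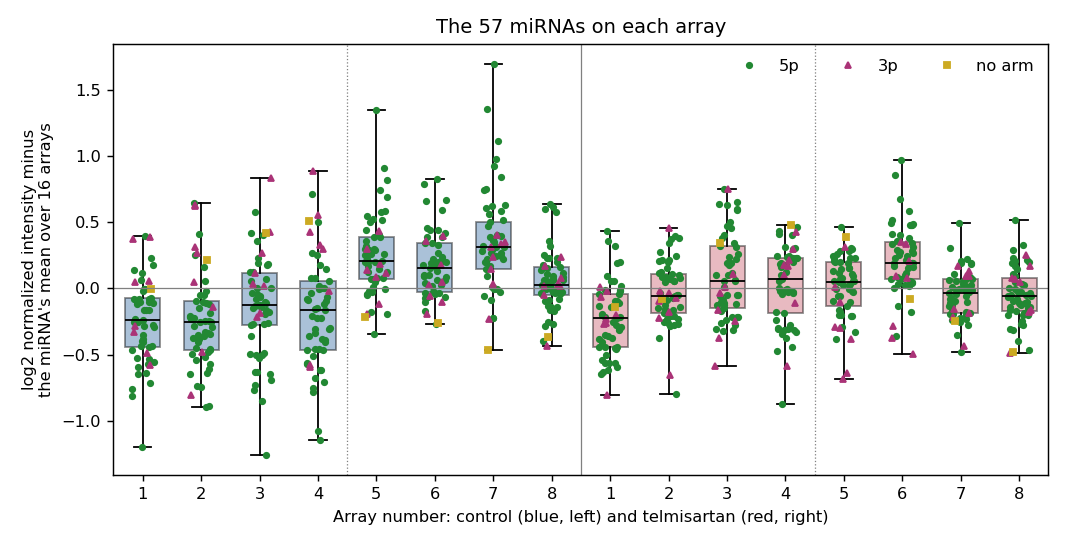
Log2 normalized intensity of each of the 57 members minus its own mean over 16 arrays (vertical axis) on each array (horizontal axis), with boxes for the quartiles, lines to the lowest and highest member, and points by arm. The boxes of control arrays 1 to 4 sit below 0 for most members and those of control arrays 5 to 8 above, while the telmisartan arrays differ less.

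As the control sets were further apart than the telmisartan sets, the treatment difference took opposite signs in them for many members. The members' median difference was 0.13 in arrays 1 to 4 and -0.16 in arrays 5 to 8, against 0.03 and -0.07 for all probes. It was above 0 in arrays 1 to 4 and below 0 in arrays 5 to 8 for 30 of 57 members, against 31.2% of all probes, and the reverse for 3, against 19.4%. Tested as an interaction of treatment and set with limma, 17 members (29.8%) passed, against 35.3% of all probes. In 16 of them (28.1% of the members), all 5p arms, the difference was lower in arrays 5 to 8, where 18.8% of all probes passed in this direction. In miR-6777-5p it was higher, where 16.5% of all passed. Because the sets were drawn from these data, the interaction p-values describe this split and are no independent support for it.

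The largest interaction was that of miR-6819-5p. It was 1.38-fold higher with telmisartan in arrays 1 to 4 and 0.470-fold in arrays 5 to 8 (interaction -1.55, adjusted p = 0.00534). Its telmisartan arrays gave 4.12, 4.35, 4.32 and 4.33 and then 4.25, 5.13, 4.45 and 4.85, so its sets were closer together with telmisartan than in control. miR-6768-5p had 2.03-fold and 0.864-fold (interaction -1.23, adjusted p = 0.00118) and miR-6743-5p 1.49-fold and 0.667-fold (interaction -1.16, adjusted p = 0.00868). Over both sets miR-6743-5p thus showed a difference of -0.0034 (SE 0.35). Of the 16, all but miR-6784-5p had a difference above 0 in arrays 1 to 4 and below 0 in arrays 5 to 8. The count of 17 was 9 without control array 4, 8 without control array 7, 11 without telmisartan array 2, 9 without telmisartan array 3 or 5, and 8 without telmisartan array 7 or 8. The counts of all probes fell as well, from 135 to between 68 and 92 for these 7 arrays. In the direction of a lower difference in arrays 5 to 8, the members' share without these arrays was 14.0% to 19.3% against 10.5% to 13.9% of all probes, so the gap of 28.1% to 18.8% was narrower without any of them. The count was 0 when the arrays were quantile normalized over the probes detected on each array, as was the count of all probes, with 3 members at an unadjusted p under 0.05.

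Within arrays 1 to 4 alone, limma called 10 members higher, where it called 19.4% of all probes, and 3 lower, where it called 18.3%. Within arrays 5 to 8 alone it called 1 higher, where it called 11.5%, and 2 lower, where it called 7.59%. miR-6868-5p was higher in both, and no member was lower in both. miR-6819-5p and miR-6851-5p were called higher in arrays 1 to 4 and lower in arrays 5 to 8.

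**Figure D4:**
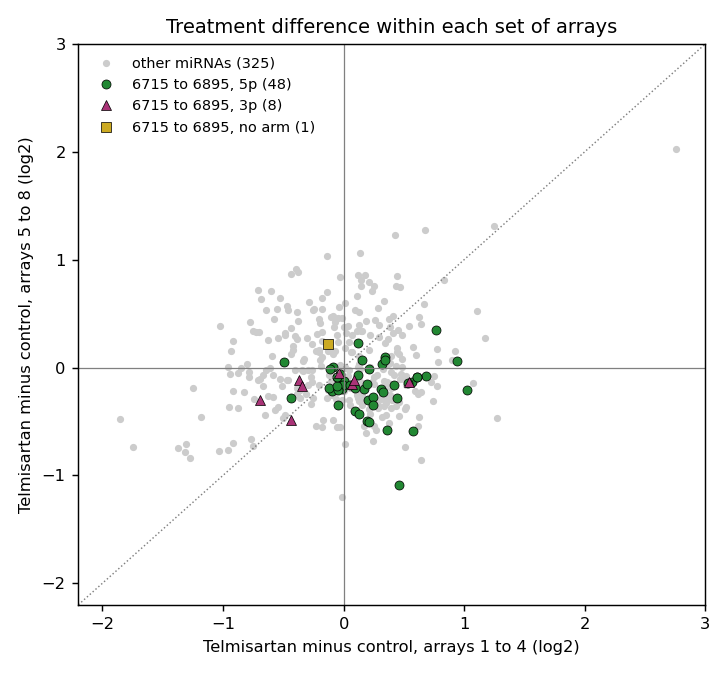
Telmisartan minus control on the log2 scale within arrays 5 to 8 (vertical axis) against the same within arrays 1 to 4 (horizontal axis) for the 57 members by arm and the 325 other probes in gray, with a dotted line of equal differences. Most 5p members lie in the lower right, above 0 in arrays 1 to 4 and below 0 in arrays 5 to 8.

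Base composition moved with the parting of the control arrays. Over the 334 probes with a sequence, the G content and the control difference (1 to 4 minus 5 to 8) had a Spearman's rho of -0.61, given as a description because all points share the same arrays and their normalization. Within the 52 members rho was -0.14, and within the 43 members of the 5p arm it was 0.03. In the range of G content that held the middle of the 5p members, 50% to 59.5%, the median control difference was -0.34 over 27 members and -0.55 over 47 other miRNAs, and 24 and 42 of them were lower in arrays 1 to 4. Members and other miRNAs of like G content therefore parted in the same direction. Against the treatment difference over all arrays, rho with G content was 0.08 over the 334 probes and 0.11 over the 52 members.

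**Figure D5:**
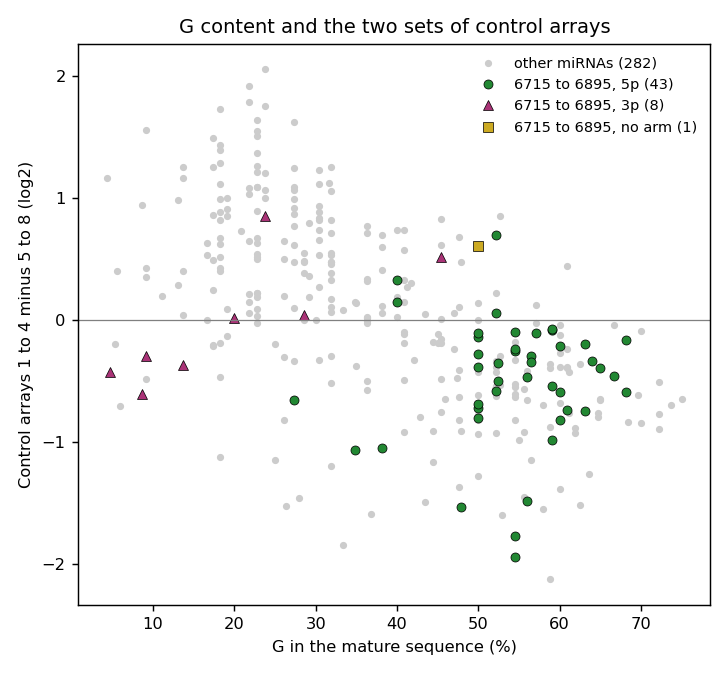
Mean log2 value of control arrays 1 to 4 minus that of arrays 5 to 8 (vertical axis) against the share of G in the mature sequence in percent (horizontal axis) for the 52 members with a sequence by arm and 282 other probes in gray. The 5p members gather at the right below 0, among other miRNAs of similar G content.

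The values of most members correlated over the arrays. Each member's values over the 16 arrays were set against the median of the other members, and Pearson's r had a median of 0.63, with 37 of 57 above 0.5 and the highest at 0.94 for miR-6893-5p. In 9 members r was below 0, lowest for miR-6840-3p (-0.69), miR-6777-5p (-0.63), miR-6860 (-0.54) and miR-6872-3p (-0.50), the same 4 that stood highest in control arrays 1 to 4. Outside the number range, the probes most like the members' median over the 16 arrays were miR-4257 (r = 0.94), miR-328-5p (0.94), miR-5787 (0.93), miR-1246 (0.93) and miR-4505 (0.92), none of which passed for treatment. The correlations are descriptions, since all values share the arrays.

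Mirtrons of lower number, named before this block (miR-877, miR-1224 to miR-1229 and others), were few on these arrays. Of their 24 probes, 5 had values on all arrays, and 0 of the 5 passed for treatment with limma, while 2 did at an unadjusted p under 0.05. All 5 had lower means in control arrays 1 to 4, where 50.8% of all probes did, by as little as -0.04 for miR-1228-5p, whose treatment difference was above 0 in both sets. miR-1237-5p had the largest, 1.07 in arrays 1 to 4 and -0.14 in arrays 5 to 8 (interaction adjusted p = 0.00118), the 1 interaction of the 5 that passed.

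Probes of the range below full detection could not be fitted with the members. Among the 292 detected on 1 to 15 arrays, 157 (53.8%) were detected on more telmisartan than control arrays, 43 (14.7%) on fewer and 92 on as many, and the gap was at most 4 arrays. Over all 1840 such probes on the array the shares were 52.2% and 21.8%. The study's supplement lists miR-6723-5p, miR-6827-5p and miR-6874-3p for xenograft tumors given telmisartan, not for these cultured cells. Here miR-6723-5p was detected on 5 control and 6 telmisartan arrays, miR-6827-5p on 4 and 5, and miR-6874-3p on 2 and 2.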

How the data were processed

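Single-color miRNA arrays (Toray, version 21) of OE19 cells were used, 8 per group. The authors deposited each spot's raw intensity, the intensity after background subtraction and a table of quantile-normalized intensities of the 382 probes detected on all arrays, on a linear scale. Quantile normalization over these probes rebuilt that table to a relative difference of 4.88e-10, and log2 of the rebuilt values was used. The background was the mean of 320 blank spots after the highest and lowest 5% were left out. Differences of telmisartan from control were estimated on the log2 scale with lmFit and eBayes of limma 3.58.1 (R 4.3.3). P-values were adjusted over the 382 probes by the Benjamini-Hochberg method, with 0.05 as the threshold. The interaction of treatment and array set was fitted on all 16 arrays. Fits were tested on simulated data, drawn independently for each array. Those data held no parting of the control arrays, so they cannot show how the fits behave under it.

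Deviations from group means of arrays with the same label number correlated at 0.149 to 0.864 over the 8 pairs, all above 0.1, so the number was also used as a block. For numbers 2, 3, 5 and 7 the check is weak, with 0.216, 0.197, 0.207 and 0.149, and for 2, 3 and 7 arrays of other numbers in the same set correlated more (medians 0.356, 0.578 and 0.228). The labels do not say what the number marks, and only 2 of 8 control arrays correlated best with the telmisartan array of their number. Positions were taken from RefSeq gene spans (GRCh38.p14). Lists, members and the rule for named miRNAs (past a threshold, or among the 5 highest or lowest in level, treatment or control set difference, or with both arms measured, plus 3 of the study's supplement) were chosen with earlier results of these data known. Settings tried were other normalizations and backgrounds, other tests, blocks, each set alone and each array left out. Columns of globally normalized values were not used.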

Additional observations from a re-analysis of the deposited data

Results flagged for a closer look

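Of 66 sets of 8 values (33 named miRNAs in each group), 3 had 1 array apart from the rest by a gap of over 0.526 of the whole range, and chance alone gives about 1 in 20. miR-6868-5p was 3.19 on telmisartan array 1 against a group median of 3.99. miR-6765-5p was 4.12 on control array 4 against 4.57. miR-6726-3p was 2.69 on control array 1 against 3.20.

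The treatment difference differed between the array sets in 17 members (29.8%) by the interaction test of limma, against 35.3% of all probes. The sets were drawn from these same data. The difference of arrays 5 to 8 minus that of arrays 1 to 4 was -1.55 for miR-6819-5p, -1.23 for miR-6768-5p, -1.16 for miR-6743-5p, -0.94 for miR-6851-5p, -0.88 for miR-6784-5p and -0.76 for miR-6765-5p. For miR-6893-5p it was -0.71, for miR-6780b-5p, miR-6781-5p and miR-6845-5p it was -0.70 each, and for miR-6741-5p and miR-6869-5p it was -0.68 each. The smallest were those of miR-6754-5p (-0.55), miR-6727-5p (-0.51), miR-6724-5p (-0.50) and miR-6808-5p (-0.49). miR-6777-5p differed the other way, by 0.55.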

How the results depend on the processing

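The number of members that rose (1) was 0 with median scaling, with no scaling and with quantile normalization over each array's detected probes, 2 with normexp at an offset of 50, with no background subtraction, with the exact Mann-Whitney test and with the array set as a block, 10 in arrays 1 to 4 alone, and 1 to 2 with 1 array left out. The number that fell (1) was 0 with the same 3 scalings, with which 5, 2 and 0 members passed in either direction at an unadjusted p under 0.05 with limma. It was 4 with the replicate block or the array set as a block, 3 in arrays 1 to 4 alone, 2 in arrays 5 to 8 alone, and 0 to 2 with 1 array left out. Counts of all 382 probes called in either direction moved as well, from 65 to 31 with median scaling and 30 with no scaling. They were 61 with normexp, 64 with no background subtraction and 58 with the Mann-Whitney test. They were 75 with the replicate block, 97 with the array set as a block and 51 to 70 with 1 array left out. In arrays 1 to 4 and 5 to 8 alone they were 144 and 73. No scaling moved the median change of all probes to 0.18, and quantile normalization over each array's detected probes moved it to 0.24. That normalization spreads each array over a different number of probes and called 0 of 646 for treatment and for the interaction (3 members at an unadjusted p under 0.05), and it gave 8 members (14.0%, against 17.2% of its 646 probes) lower and 0 (against 0.155%) higher in control arrays 1 to 4 without overlap. With no scaling 42 (73.7%, against 45.3% of all probes) were lower and 0 (against 7.85%) higher. The interaction count of 17 members (29.8%) was 8 to 19 (14.0% to 33.3%) with 1 array left out. Of all probes, 35.3% passed with all arrays and 17.8% to 46.9% with 1 array left out. With the replicate block 18 members (31.6%) passed, against 36.1% of all probes. The block changed no other treatment call of the named members beside those given with the results. The median change of the members minus that of all probes stayed between -0.08 and 0.09 in every setting. The difference of miR-6819-5p was 0.040 with quantile normalization over each array's detected probes and 0.46 in arrays 1 to 4 alone. In arrays 5 to 8 alone those of miR-6765-5p, miR-6768-5p and miR-6845-5p were -0.080, -0.21 and -0.083. The cause of these changes was not tested. The number of arrays and signals near the background limit the precision.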
